A study of Homo sapiens with 10 samples.

Results

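Hke3 and HCT116, 2 related human colon cancer cell lines, were compared while they shared medium with THP1 macrophages. The comparison rests on 4 of the 10 arrays of the series, 2 of each line, chosen by their titles: Hke3 and HCT116 with THP1 cells, and Hke3 and HCT116 with THP1 cells and vitamin D3. The other arrays used are the 4 of the same lines without THP1 cells, alone or with vitamin D3, which give the line difference that coculture is set against, and 2 arrays of THP1 cells, which served for markers only. HCT116 is an established colorectal carcinoma line, and Hke3 is a clone derived from it by gene targeting, so a line difference also holds whatever else separates 1 clone from its parent. THP1 is a monocytic leukaemia line, labelled here as macrophages. Tumour cells and THP1 cells did not touch but exchanged soluble factors, and vitamin D3 was given for 24 hours. All these colon cancer cells grew in MEM with serum. Each condition has 1 array, so the 2 vitamin D3 states stand in for replicates. P-values rest only on how far the 8 colon cancer arrays departed from a fit with a shared vitamin D3 effect. Such departures hold any change, between the vitamin D3 states, of the line difference or of the coculture effect. Levels are RMA log2 intensities, in which 1 unit is a doubling of signal, and ± gives the standard error of the fit.

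A cancer cell that shares medium with macrophages meets their secreted factors and draws on the same nutrients. Cells short of oxygen keep the transcription factor HIF, whose alpha subunits are otherwise hydroxylated by EGLN enzymes and degraded, and HIF then switches on glycolytic enzymes, glucose transporters, mitophagy genes and its own EGLN regulators. Cells short of amino acids, or with unfolded protein in the endoplasmic reticulum, raise translation of ATF4, which switches on genes of amino acid synthesis and uptake together with DDIT3, TRIB3, CHAC1 and SESN2. Another system, SREBP with its brakes INSIG1 and INSIG2, sets the genes of cholesterol synthesis.

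Among genes that separated the lines in coculture, 10 promoters are shown for the places where short core motifs of these factors occur. They are the 250 bases before an annotated start (RefSeq, GRCh38.p14), written 5′ to 3′ on the gene's strand, with motif matches in capitals. HK2, ASNS and CEBPG have 2 listed starts each, and the start with most motif matches is shown. The first 4, from genes higher in Hke3 in coculture, show the HIF core ACGTG or GCGTG on either strand, and CACGTG holds ACGTG on both strands.
PFKFB4, chr3:48556804-48557053, minus strand: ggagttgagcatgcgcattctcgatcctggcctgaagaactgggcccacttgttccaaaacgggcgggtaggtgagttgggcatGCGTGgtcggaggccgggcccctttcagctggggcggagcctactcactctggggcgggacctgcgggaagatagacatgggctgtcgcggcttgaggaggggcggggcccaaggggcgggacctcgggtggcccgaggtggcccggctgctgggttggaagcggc
HK2, chr2:74834920-74835169, plus strand: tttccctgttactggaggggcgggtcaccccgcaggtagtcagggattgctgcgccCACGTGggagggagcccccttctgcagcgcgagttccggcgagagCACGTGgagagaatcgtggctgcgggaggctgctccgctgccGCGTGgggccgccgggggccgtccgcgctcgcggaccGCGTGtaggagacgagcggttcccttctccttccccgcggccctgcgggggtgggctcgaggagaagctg
MIR210HG, chr11:568458-568707, minus strand: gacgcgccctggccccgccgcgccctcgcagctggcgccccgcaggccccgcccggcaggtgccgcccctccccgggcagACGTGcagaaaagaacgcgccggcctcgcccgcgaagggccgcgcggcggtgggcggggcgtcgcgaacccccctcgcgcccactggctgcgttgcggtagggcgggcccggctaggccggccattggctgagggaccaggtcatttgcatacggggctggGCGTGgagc
ANKRD37, chr4:185396591-185396840, plus strand: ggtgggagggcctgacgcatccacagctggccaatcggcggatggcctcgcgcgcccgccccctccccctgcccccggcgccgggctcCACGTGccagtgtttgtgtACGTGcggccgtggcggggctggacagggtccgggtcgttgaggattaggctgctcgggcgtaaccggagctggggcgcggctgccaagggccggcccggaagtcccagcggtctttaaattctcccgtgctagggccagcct
The next 6, from genes higher in HCT116 in coculture, show the composite motif TGATGNAA, at which ATF4 pairs with a C/EBP protein, on either strand.
ASNS, chr7:97872409-97872658, minus strand: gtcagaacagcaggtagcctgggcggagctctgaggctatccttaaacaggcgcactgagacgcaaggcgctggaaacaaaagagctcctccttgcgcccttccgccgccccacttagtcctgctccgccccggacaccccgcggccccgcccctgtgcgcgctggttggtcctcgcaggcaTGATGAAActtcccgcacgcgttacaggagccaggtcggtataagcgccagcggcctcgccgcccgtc
CHAC1, chr15:40953221-40953470, plus strand: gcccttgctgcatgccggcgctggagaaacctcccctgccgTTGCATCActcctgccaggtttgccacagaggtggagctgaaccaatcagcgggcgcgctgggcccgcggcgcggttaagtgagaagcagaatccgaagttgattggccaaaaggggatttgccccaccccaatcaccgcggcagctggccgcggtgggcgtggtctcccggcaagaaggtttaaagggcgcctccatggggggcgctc
AARS1, chr16:70289507-70289756, minus strand: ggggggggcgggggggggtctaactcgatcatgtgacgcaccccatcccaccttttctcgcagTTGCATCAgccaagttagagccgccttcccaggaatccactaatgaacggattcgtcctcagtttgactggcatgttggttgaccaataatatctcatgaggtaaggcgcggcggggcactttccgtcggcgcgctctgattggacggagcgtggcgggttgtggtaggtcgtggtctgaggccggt
IARS1, chr9:92293698-92293947, minus strand: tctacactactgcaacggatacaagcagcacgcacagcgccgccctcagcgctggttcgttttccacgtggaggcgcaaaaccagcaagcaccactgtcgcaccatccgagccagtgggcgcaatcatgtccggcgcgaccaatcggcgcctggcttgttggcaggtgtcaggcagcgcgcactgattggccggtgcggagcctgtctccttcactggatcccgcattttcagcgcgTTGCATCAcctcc
CEBPG, chr19:33373863-33374112, plus strand: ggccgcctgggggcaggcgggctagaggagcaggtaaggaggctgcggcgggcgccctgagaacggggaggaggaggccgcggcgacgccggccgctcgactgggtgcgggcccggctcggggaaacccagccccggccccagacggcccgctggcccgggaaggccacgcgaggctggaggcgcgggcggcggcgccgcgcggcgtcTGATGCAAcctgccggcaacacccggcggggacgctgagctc
IL20RB, chr3:136957733-136957982, plus strand: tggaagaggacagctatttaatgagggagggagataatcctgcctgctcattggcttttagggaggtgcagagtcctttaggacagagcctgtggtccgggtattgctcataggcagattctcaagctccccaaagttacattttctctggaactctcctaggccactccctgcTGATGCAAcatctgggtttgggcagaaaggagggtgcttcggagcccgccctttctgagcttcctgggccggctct
Across the 10646 tested genes with a promoter in the table, 28% held ACGTG, 63.2% held either HIF core and 2.45% held TGATGNAA at 1 or more of their listed starts. Among all 27305 genes of the table these shares were 21.7%, 47.4% and 3.89%. These are descriptions of letters in a window, and no binding was measured.

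Before the results, 3 properties of the arrays bear on them. CYP24A1, the vitamin D degrading enzyme that the vitamin D receptor switches on, read 9.99 alone and 11.44 with vitamin D3 in HCT116, and 10.89 and 12.35 in Hke3. In coculture it read 10.68 without and 9.70 with vitamin D3 in HCT116, and 12.25 and 10.89 in Hke3, which is the opposite order in both lines, so the vitamin D3 labels of the coculture arrays are in doubt. The mean line difference in coculture is the same with these labels exchanged, but its error is not, and counts with exchanged labels are given below. The Hke3 array titled as vitamin D3 is called untreated in 1 of its label fields and was kept as treated. The ACTB 3′ minus 5′ signal, which grows as RNA degrades, was higher in Hke3 by 0.39 log2 in coculture and by 0.56 without it, and its part in the results was not tested. Of 10 colon epithelial markers 9 were above the median of all values on every colon cancer array, LGALS4 being the exception. Of 14 monocyte and macrophage markers, with a summed level of 9.64 to 9.76 log2 on the colon cancer arrays against 15.5 and 15.9 on the THP1 arrays, 4 to 6 were above that median on each colon cancer array. LAPTM5, ITGAM, CSF1R and AIF1 were above it on all 8, and TYROBP, PTPRC and LYZ below it on all 8. SRGN, abundant in THP1 at 13.90 and 14.05, read 6.28 on the cocultured Hke3 array with vitamin D3 against 4.38 to 4.90 on the other coculture arrays.

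In coculture 5089 of 13246 genes tested (38.4%) differed between the lines past an adjusted p of 0.05 by limma with Benjamini-Hochberg adjustment. Of these, 3150 (23.8%) were higher in Hke3 and 1939 (14.6%) higher in HCT116, and 318 (2.4%) differed at least 2-fold. With the arrays centred on a common median the split was 2531 higher in Hke3 and 3014 higher in HCT116, and the median gene moved from 0.02 to -0.05 log2. Without coculture 4298 genes (32.4%) differed, 2677 higher in Hke3 and 1621 higher in HCT116, or 2159 and 2534 with that centring. Most of the coculture difference was thus carried by genes for which the interaction, the line difference in coculture minus that without it, did not pass: 4643 (35.1% of genes tested) of the 5089. The interaction passed for 551 genes (4.16%), 238 (1.8%) toward Hke3 and 313 (2.36%) toward HCT116, and 21.8% of genes had an unadjusted p under 0.05.

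A gene was taken as separating the lines in coculture alone when the coculture difference and the interaction both passed, the sign was the same in both coculture pairs, and the difference without coculture neither passed nor reached 0.5 log2. This held for 246 genes (1.86%), 128 (0.966%) higher in Hke3 and 118 (0.891%) higher in HCT116. The 95% interval of the difference without coculture lay wholly within 0.5 log2 of 0 for 122 of the 128 and 112 of the 118. Their median coculture difference was 0.65 log2 in the first set and -0.58 in the second, and 20 and 19 genes reached 2-fold. In 92 of the 128 the Hke3 mean was higher and the HCT116 mean lower with THP1 cells than without, and in 102 of the 118 the reverse. Changes of either line with coculture were not tested on their own. The class was chosen by these same values, so its medians and counts describe the selection and are no separate support. With the probe sets of a gene averaged the class held 274 genes, of which 132 were among the 246. A further 104 genes (0.785%) differed both ways with opposite sign, 28 of them higher in Hke3 in coculture and 76 higher in HCT116. For 68 genes (0.513%) the difference kept its sign and widened, for 27 (0.204%) it narrowed, and for 105 (0.793%) it passed without coculture alone. Only NRP1 met the tests but exceeded the bound, at -1.44 in coculture and 0.58 without.

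**Figure D1:**
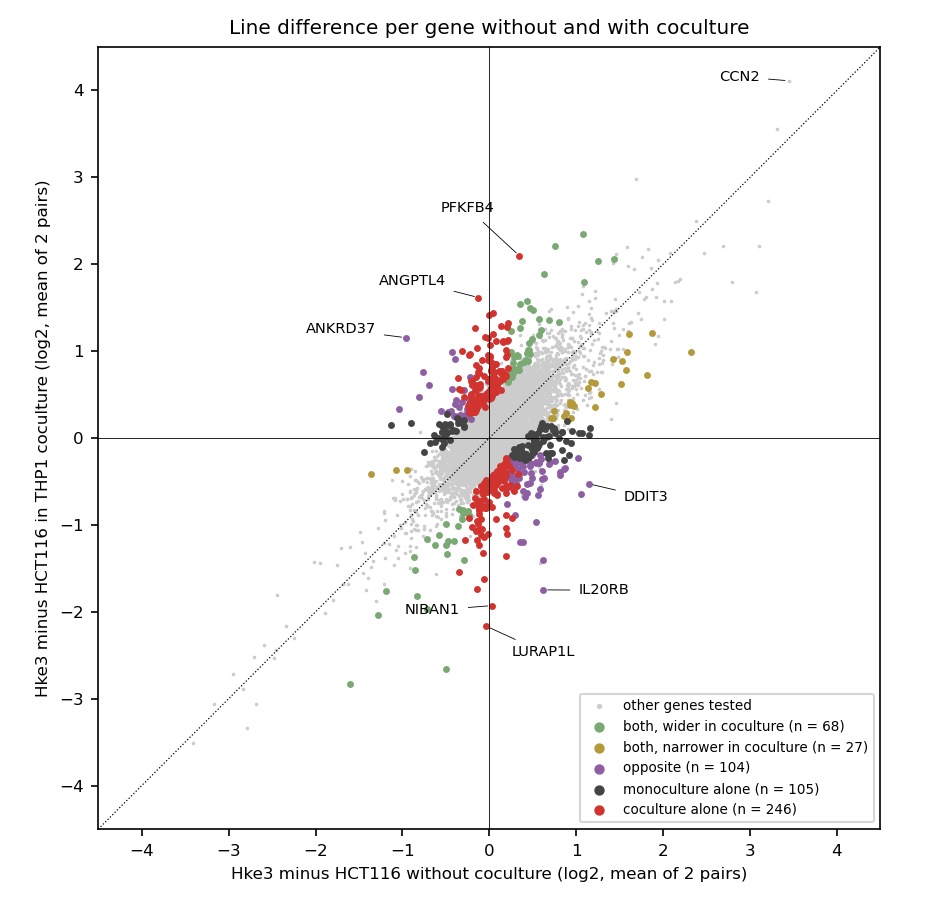
Each point is 1 gene, with the Hke3 minus HCT116 difference without coculture on the x axis and in THP1 coculture on the y axis, both in log2 as the mean of 2 pairs of arrays. The 246 genes apart in coculture alone (red) lie along the vertical axis, 104 genes with opposite signs (purple) in the off-diagonal quadrants, and CCN2, at 4.11 in coculture and 3.45 without, near the dotted line of equal difference; 1 gene is left out.

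The counts depended on single arrays. Left out 1 at a time, the 8 arrays gave between 46 and 111 genes apart in coculture alone. The count was 46 without the Hke3 vitamin D3 array and 62 without Hke3 alone. It was 52 without HCT116 alone, 73 without the HCT116 vitamin D3 array and 52 without cocultured HCT116 with vitamin D3. It was 53 without cocultured HCT116, 70 without cocultured Hke3 with vitamin D3 and 111 without cocultured Hke3. With the vitamin D3 labels of the coculture arrays exchanged it was 413, of which 216 were among the 246, and the interaction passed for 975 genes. For the interaction itself the 8 counts ran from 92 without the Hke3 vitamin D3 array to 282 without cocultured Hke3. They were 103 without HCT116 alone, 111 without cocultured HCT116 with vitamin D3, 125 without Hke3 alone, 134 without cocultured HCT116, 148 without HCT116 with vitamin D3 and 185 without cocultured Hke3 with vitamin D3. The coculture difference passed for 3156 genes without cocultured HCT116, 3348 without cocultured HCT116 with vitamin D3 and 3332 without cocultured Hke3 with vitamin D3. The difference without coculture passed for 2217 genes without Hke3 alone, 2514 without the HCT116 vitamin D3 array, 2306 without HCT116 alone and 2679 without the Hke3 vitamin D3 array.

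Among the 12 genes named for the largest coculture difference toward Hke3, 5 belong to the HIF list. PFKFB4, which makes the allosteric activator of glycolysis fructose 2,6-bisphosphate, read 8.48 and 8.94 in HCT116 and 10.76 and 10.86 in Hke3 in coculture, the array without vitamin D3 first. Without coculture it read 8.81 and 8.85 in HCT116 and 9.20 and 9.15 in Hke3. Both cocultured Hke3 arrays stood above all 6 others, and the line difference was 2.10 ± 0.12 log2 (4.28-fold, adjusted p 4.37e-05 by limma) against 0.34 ± 0.12 without coculture (adjusted p 0.0554). ANGPTL4, a secreted inhibitor of lipoprotein lipase, read 7.89 and 8.37 in HCT116 and 9.66 and 9.84 in Hke3 with THP1 cells and 7.93 and 7.83 in HCT116 and 7.76 and 7.75 in Hke3 without them. It differed by 1.62 ± 0.13 log2 in coculture and by -0.12 ± 0.13 otherwise, and again no other array reached the cocultured Hke3 pair. EGLN3, the oxygen-dependent hydroxylase that is itself a HIF target, read 7.36 and 7.66 in HCT116 and 8.73 and 9.17 in Hke3 in coculture and 7.41 and 7.24 in HCT116 and 7.41 and 7.32 in Hke3 otherwise. Its difference went from 0.04 ± 0.15 to 1.44 ± 0.15 log2, and the 4 arrays without coculture were intermixed.

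HK2, the hexokinase that commits glucose to the cell, read 10.68 and 11.02 in HCT116 and 12.03 and 12.26 in Hke3 in coculture, a difference of 1.29 ± 0.12 log2 without overlap, against 0.13 ± 0.12 without coculture. A second bright HK2 probe set gave -0.14, so the HK2 result rests on 1 probe set. INSIG2, which retains the SREBP escort in the endoplasmic reticulum, read 9.15 and 9.60 in HCT116 and 10.58 and 10.82 in Hke3 in coculture and differed by 1.33 ± 0.12 log2. MIR210HG, outside that list, is the host transcript of the hypoxia-induced microRNA miR-210. It read 7.26 and 7.64 in HCT116 and 8.62 and 8.82 in Hke3 and differed by 1.27 ± 0.11 log2, against -0.17 ± 0.11 without coculture. In both genes the coculture groups did not overlap, and without coculture each pair of lines lay within 0.28 log2.

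The other 6 genes named toward Hke3 have no common role. FOSL2, an AP-1 subunit, had the tightest values, 8.96 and 9.002 in HCT116 and 10.15 and 10.19 in Hke3, and differed by 1.19 ± 0.07 log2 in coculture and 0.04 ± 0.07 without. The long non-coding RNA UCA1 was bright in both lines at 11.45 and 11.67 in HCT116 and 12.68 and 12.69 in Hke3 and differed by 1.13 ± 0.10 log2. PTCH1, the Hedgehog receptor, differed by 1.28 ± 0.08 log2, but another bright probe set of it gave -0.20. C8orf58 differed by 1.41 ± 0.09 log2. Its other bright probe set gave 0.09, and those of FOSL2 ran from 0.02 to 1.60. EFCAB3 and LOC154761, by 1.16 ± 0.17 and 1.16 ± 0.08 log2, were below the median of all values in cocultured HCT116, so their size is less certain, and the 2 EFCAB3 pairs were 0.78 log2 apart.

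Toward HCT116 the largest difference was that of LURAP1L. It read 8.80 and 9.17 in HCT116 and 6.76 and 6.88 in Hke3 in coculture and 7.08 and 6.86 in HCT116 and 6.95 and 6.91 in Hke3 without, so only the cocultured HCT116 arrays stood apart, with a line difference of -2.16 ± 0.13 log2 (4.48-fold, adjusted p 5.29e-05). NIBAN1, a stress-induced protein also known as FAM129A, read 9.82 and 9.85 in HCT116 and 7.86 and 7.95 in Hke3 with THP1 cells and 8.82 and 8.51 in HCT116 and 8.74 and 8.65 in Hke3 without them. Here the lines moved apart on both sides, with HCT116 above and Hke3 below the arrays without coculture, and the difference was -1.93 ± 0.10 log2. CSTA, the cysteine protease inhibitor cystatin A, read 12.001 and 11.89 in HCT116 and 10.19 and 10.21 in Hke3 with THP1 cells and 11.95 and 11.74 in HCT116 and 11.75 and 11.67 in Hke3 without them. In this case the cocultured Hke3 arrays were the low ones, by -1.74 ± 0.07 log2 against HCT116. The THP1 arrays read 13.78 and 13.60 for CSTA and 8.98 and 8.92 for NIBAN1.

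UPP1, which splits uridine for the salvage of its ribose, differed by -1.63 ± 0.12 log2, with values of 9.94 and 10.09 in HCT116 and 8.59 and 8.19 in Hke3 in coculture. ARRDC4, an alpha-arrestin that responds to sugar phosphates and restrains glucose uptake, read 10.22 and 10.08 in HCT116 and 8.75 and 8.47 in Hke3 and differed by -1.54 ± 0.12 log2. GFPT1, which opens the hexosamine pathway from fructose 6-phosphate, read 10.53 and 10.70 in HCT116 and 9.29 and 9.49 in Hke3 and differed by -1.23 ± 0.09 log2. In each of these 3 the HCT116 coculture arrays were the highest of the 8. PHGDH, the first enzyme of serine synthesis, instead stood low in cocultured Hke3, with 12.04 and 11.97 in HCT116 and 10.92 and 10.87 in Hke3 and a difference of -1.11 ± 0.06 log2. TRIB3, the pseudokinase that feeds back on ATF4, read 12.19 and 12.32 in HCT116 and 10.95 and 10.84 in Hke3 and differed by -1.36 ± 0.09 log2. MOCOS, the molybdenum cofactor sulfurase, differed by -1.18 ± 0.08, the Rap regulator SIPA1L2 by -1.17 ± 0.10 and the tubulin TUBE1 by -1.14 ± 0.14 log2. EML2, a microtubule binding protein, differed by -1.32 ± 0.06 log2, although its other 3 bright probe sets ranged from -1.10 to 0.08. The interactions of those 3 ran from -0.68 to 0.25, and 2 were of the other sign.

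**Figure D2:**
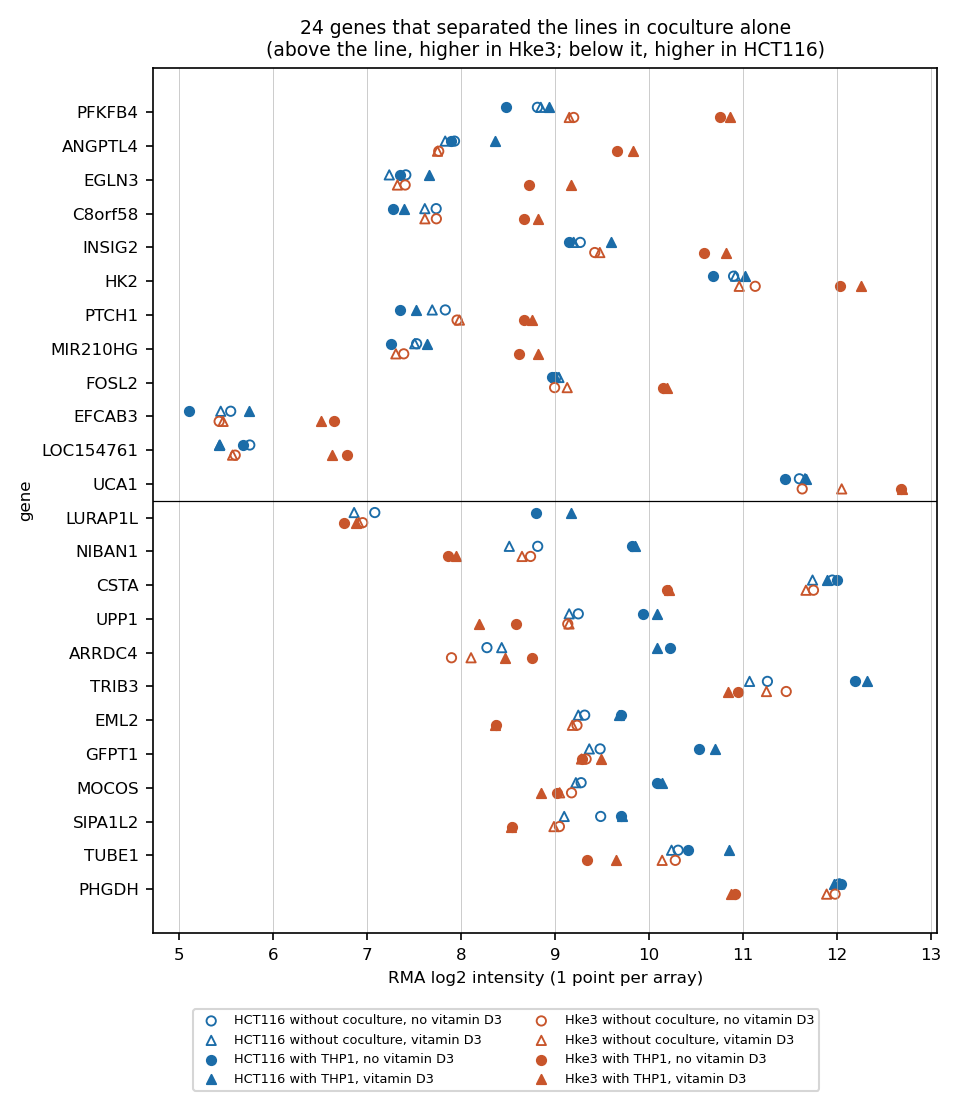
Points give the RMA log2 intensity on each of the 8 colon cancer arrays for the 24 genes with the largest coculture difference among those apart in coculture alone. Filled points are coculture arrays: in the upper 12 genes the filled orange points (Hke3) lie right of the filled blue points (HCT116), in the lower 12 left of them, while open points of both lines lie close together.

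The list of HIF targets and glycolytic enzymes had the largest median interaction of the 20 lists, 0.99 log2 toward Hke3. All lists and members were chosen with earlier results of these data known. List ranks and counts, here and below, therefore describe these arrays only. Of 27 members tested, 20 were higher in Hke3 and 4 higher in HCT116 in coculture, where the background is 23.8% and 14.6% of genes. Without coculture 3 were higher in Hke3 and 7 in HCT116, where the background is 20.2% and 12.2%, and the median difference went from -0.15 to 0.62 log2. The interaction passed for 16 members, all toward Hke3, against 1.8% of all genes in that direction. Of the 27 tested, 11 were in the class apart in coculture alone, beside 0.966% of all genes in it toward Hke3. With median-centred arrays or cyclic loess the median coculture difference was 0.54 and 0.62. Leaving out 1 array at a time gave 4 (without HCT116 alone) to 12 members with an interaction past the threshold, 6 without cocultured HCT116, 7 without Hke3 with vitamin D3, 8 without cocultured Hke3 with vitamin D3, 9 without HCT116 with vitamin D3 and 10 without cocultured HCT116 with vitamin D3, again all toward Hke3. With the coculture vitamin D3 labels exchanged it was 23, and with a minimum of 1.5-fold in the test it was 0 (24 at an unadjusted p under 0.05 with no minimum).

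The glycolytic enzymes of the list differed unequally. ALDOC, an aldolase, read 10.70 and 11.01 in HCT116 and 11.71 and 11.91 in Hke3 in coculture and differed by 0.96 ± 0.10 log2, against -0.24 ± 0.10 without. The other aldolase ALDOA, near the top of the signal range at 13.90 and 14.01 in HCT116 and 14.38 and 14.43 in Hke3, differed by 0.45 ± 0.08 log2. The enzymes PGK1 (0.49 ± 0.09) and LDHA (0.33 ± 0.07) were higher in cocultured Hke3 too, but their interaction did not pass (adjusted p 0.0736 and 0.0712). ENO1 did not differ past the threshold in coculture, at 0.01 ± 0.07 log2. Its paralogue ENO2 was among the widest of the list at 2.34 ± 0.15 log2, and was already 1.07 ± 0.15 apart without coculture. PDK1, which keeps pyruvate out of the mitochondrion, differed by 0.69 ± 0.14 log2.

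HIF targets outside glycolysis include genes of mitochondria, chromatin and the matrix. The mitophagy receptors BNIP3 and BNIP3L differed by 0.62 ± 0.13 and 0.57 ± 0.12 log2 in coculture, against -0.69 ± 0.13 and -0.34 ± 0.12 without. For BNIP3 the line with more signal changed, from HCT116 without THP1 cells to Hke3 with them. The histone demethylase KDM3A read 10.16 and 10.45 in HCT116 and 11.24 and 11.39 in Hke3 in coculture and differed by 1.01 ± 0.11 log2, and the collagen prolyl hydroxylase P4HA1 differed by 0.84 ± 0.13. PPFIA4, a liprin scaffold protein, read 5.58 and 5.62 in HCT116 and 7.71 and 7.90 in Hke3, below the median of all values in HCT116, and differed by 2.21 ± 0.12 log2, with 0.76 ± 0.12 already without coculture. NDRG1 had a large coculture difference of 1.49 ± 0.20 log2 but an interaction that did not pass (adjusted p 0.174).

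ANKRD37 and HILPDA changed sign. ANKRD37, a small ankyrin repeat protein, read 10.15 and 10.71 in HCT116 and 11.40 and 11.77 in Hke3 in coculture and 10.10 and 10.09 in HCT116 and 9.31 and 8.96 in Hke3 without it. Hke3 was thus the lower line without THP1 cells, by -0.96 ± 0.19 log2, and the higher line with them, by 1.16 ± 0.19. HILPDA, which coats lipid droplets and blocks their lipase, went from -0.43 ± 0.07 to 0.99 ± 0.07 log2 in the same way. For ADM, the vasodilator peptide adrenomedullin, a difference of -0.90 ± 0.13 log2 without coculture was down to 0.17 ± 0.13 in coculture.

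The 4 members that were higher in cocultured HCT116 include both glucose transporters of the list. Their number was 1 without cocultured HCT116 with vitamin D3 or without cocultured Hke3, and 2 without cocultured Hke3 with vitamin D3. SLC2A1, the main glucose transporter GLUT1, read 10.71 and 11.22 in HCT116 and 9.10 and 9.23 in Hke3 in coculture and 10.73 and 10.43 in HCT116 and 8.19 and 8.08 in Hke3 without it, 2 sets that do not overlap between the lines. Its difference was -1.80 ± 0.17 log2 in coculture and -2.45 ± 0.17 without, with an interaction of 0.65 ± 0.24 (adjusted p 0.168). SLC2A3 differed by -0.63 ± 0.17, the angiogenic factor VEGFA by -0.49 ± 0.11 and the mTORC1 inhibitor DDIT4 by -0.23 ± 0.07 log2.

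Promoter letters were counted for the whole class rather than for chosen members. Of 105 genes with a promoter among the 128 higher in Hke3, 38.1% held ACGTG and 70.5% either HIF core, beside 28% and 63.2% of all tested genes. Among the 101 with a promoter higher in HCT116 the shares were 25.7% and 59.4%. For genes of opposite sign, 12 of 24 promoters (50%) held ACGTG and 79.2% either core where Hke3 was higher in coculture, and 29.3% and 72.4% of 58 where HCT116 was. In the printed sequences the PFKFB4 match begins 166 bases before the start. The ANKRD37 promoter holds a CACGTG whose core begins 162 bases before the start and an ACGTG that begins 143 bases before it. Among genes named toward Hke3 in coculture alone, EGLN3, PTCH1 and EFCAB3 held neither HIF core in this window.

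The ATF4 list ran the other way. Of 19 members tested, 15 were higher in HCT116 in coculture and 1 in Hke3, beside 14.6% and 23.8% of all genes. Without coculture 9 were higher in Hke3 and 1 in HCT116, beside 20.2% and 12.2%. The median went from 0.19 to -0.49 log2, and was -0.57 with median-centred arrays and -0.49 with cyclic loess. The interaction passed for 11 members, all toward HCT116, against 2.36% of all genes in that direction. It passed for 7 to 10 members with 1 array left out, the 7 without HCT116 alone, HCT116 with vitamin D3, cocultured HCT116 with vitamin D3, Hke3 alone or Hke3 with vitamin D3. It passed for 13 with the coculture vitamin D3 labels exchanged and for 3 with a minimum of 1.5-fold.

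In the list 7 of 19 members changed sign between the settings, beside 0.785% of all genes. DDIT3, the transcription factor CHOP, read 10.53 and 10.51 in HCT116 and 10.03 and 9.96 in Hke3 in coculture and 8.68 and 8.82 in HCT116 and 9.83 and 9.96 in Hke3 without it. The HCT116 arrays with THP1 cells were the highest, the HCT116 arrays without them the lowest, and all 4 Hke3 arrays lay between. SESN2, a leucine sensor that restrains mTORC1, read 9.62 and 9.56 in HCT116 and 9.09 and 8.82 in Hke3 in coculture and 8.41 and 8.49 in HCT116 and 9.47 and 9.54 in Hke3 without it, so that its difference went from 1.05 ± 0.09 to -0.64 ± 0.09 log2. CHAC1, which degrades glutathione, went from 0.39 ± 0.08 to -1.20 ± 0.08 log2, and ATF4 itself from 0.24 ± 0.07 to -0.42 ± 0.07. ATF3, an early stress factor, was the 1 member higher in cocultured Hke3, by 0.77 ± 0.14 log2, and was 1.56 ± 0.14 apart without coculture.

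Enzymes and transporters of amino acids differed by unequal amounts. ASNS, which makes asparagine, read 13.74 and 13.76 in HCT116 and 12.82 and 12.82 in Hke3 in coculture and 13.70 and 13.59 in HCT116 and 13.60 and 13.51 in Hke3 without it, with the cocultured Hke3 arrays low and the other 6 between 13.51 and 13.76. Its difference was -0.93 ± 0.07 log2 in coculture and -0.09 ± 0.07 without. Of the serine pathway enzymes PHGDH differed by -1.11 ± 0.06 and PSAT1 by -0.42 ± 0.07 log2, while PSPH (-0.18 ± 0.07, adjusted p 0.0803) and SHMT2 (-0.09 ± 0.06, adjusted p 0.301) did not pass. The 2 chains of amino acid exchangers, SLC7A11 and SLC3A2, went from 0.70 ± 0.08 and 0.26 ± 0.07 without coculture to -0.28 ± 0.08 and -0.47 ± 0.07 with it. Other bright SLC7A11 probe sets gave -2.08 and -0.61 in coculture, with interactions of -1.17 to -0.97. The probe set at -2.08 did not change sign. SLC7A5, which shares the SLC3A2 chain, was -0.09 ± 0.09 and did not pass.

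Promoters with TGATGNAA were 7 of 101 (6.93%) among genes higher in HCT116 in coculture alone and 4 of 58 (6.9%) among those of opposite sign, beside 2.45% of all tested genes. Among genes higher in cocultured Hke3 they were 2 of 105 (1.9%) in the class apart in coculture alone and 2 of 24 (8.33%) of those of opposite sign. The 7 are AARS1, ASNS, CEBPG, HERPUD1, IARS1, PTP4A1 and TACC2, and the 4 are CHAC1, FHL2, FOXP1 and IL20RB. AARS1 and IARS1 charge tRNAs with alanine and isoleucine, CEBPG is itself a C/EBP partner of ATF4, and each was chosen for display after this search. Of the genes named toward HCT116 in coculture alone, LURAP1L, NIBAN1, UPP1, ARRDC4, TRIB3, EML2, GFPT1, MOCOS, SIPA1L2, TUBE1 and PHGDH held no match in this window. DDIT3 and SESN2 held none either.

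**Figure D3:**
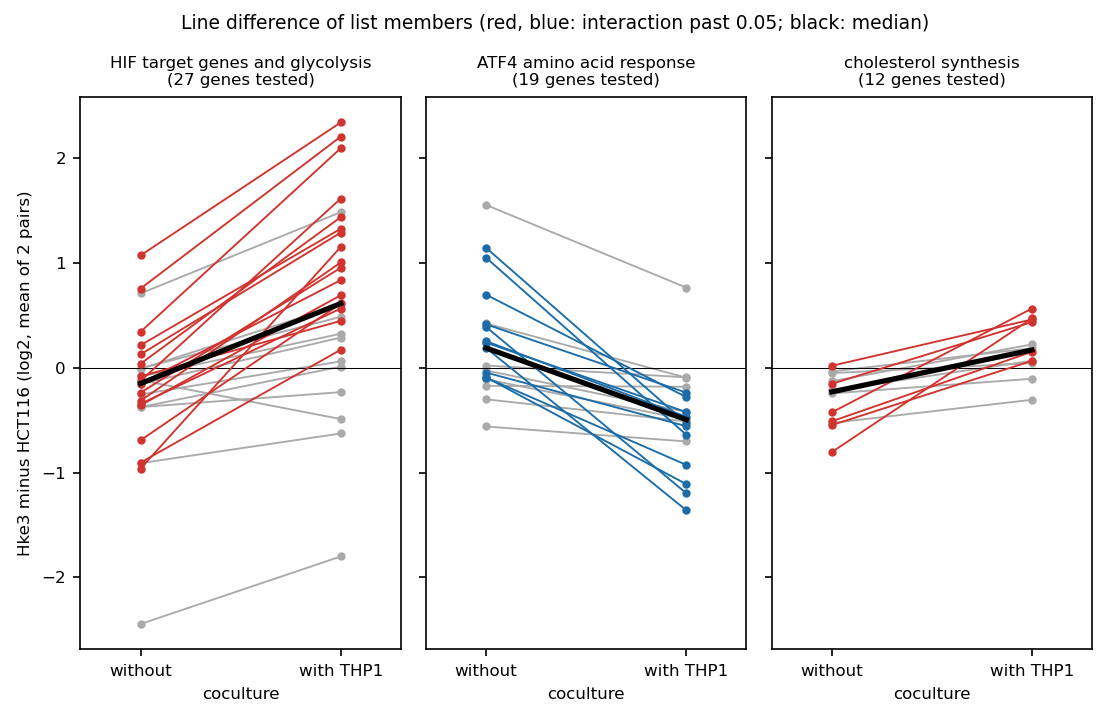
Lines join each member's Hke3 minus HCT116 difference (log2, mean of 2 pairs) without coculture and with THP1 for the HIF, ATF4 and cholesterol lists, coloured where the interaction passed 0.05 and black for the list median. The medians run from -0.15 to 0.62, from 0.19 to -0.49 and from -0.23 to 0.17.

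Cholesterol genes, with 12 of 17 tested, had 4 members higher in cocultured Hke3 and 1 higher in HCT116 (background 23.8% and 14.6%). Without coculture 5 were higher in HCT116, beside 12.2% of all genes. For the interaction the background toward Hke3 was 1.8% of all genes. The interaction passed for 6, all toward Hke3, and for 1 to 3 with any 1 array left out, 1 of them without HCT116 alone, cocultured HCT116, Hke3 with vitamin D3 or cocultured Hke3 with vitamin D3. INSIG1, the SREBP brake that is also an SREBP target, read 10.03 and 10.32 in HCT116 and 10.56 and 10.72 in Hke3 in coculture and 10.60 and 10.61 in HCT116 and 9.72 and 9.88 in Hke3 without it. Hke3 was below HCT116 without THP1 cells, by -0.80 ± 0.08 log2, and above it with them, by 0.47 ± 0.08. STARD4, a sterol carrier, went from -0.42 ± 0.10 to 0.57 ± 0.10 log2. The squalene enzymes SQLE and LSS differed by 0.44 ± 0.07 and 0.46 ± 0.07 log2 in coculture alone. IDI1 and DHCR7 had differences without coculture of -0.51 ± 0.07 and -0.55 ± 0.09 log2 and none past the threshold with it, at 0.15 ± 0.07 and 0.07 ± 0.09.

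Of 16 endoplasmic reticulum chaperones and related genes tested, 5 were higher in cocultured Hke3, beside 23.8% of all genes, and 7 in HCT116, beside 14.6%. For the interaction the background toward HCT116 was 2.36% of all genes. The interaction passed for 5, all toward HCT116, or for 1 (without Hke3 alone or cocultured HCT116 with vitamin D3) to 4 with 1 array left out. CLGN, a chaperone relative of calnexin, read 8.80 and 8.82 in HCT116 and 6.14 and 6.14 in Hke3 in coculture and 6.71 and 6.49 in HCT116 and 6.19 and 6.004 in Hke3 without it, with the HCT116 coculture pair above every other array and cocultured Hke3 below the median of all values. Its difference was -2.66 ± 0.08 log2 in coculture and -0.50 ± 0.08 without. The degradation factors HERPUD1 and SEL1L differed by -0.57 ± 0.07 and -0.47 ± 0.07 log2 in coculture, and the transcription factor XBP1 by -0.64 ± 0.07. Another bright HERPUD1 probe set gave 0.11. PDIA4 (0.75 ± 0.08), CALR (0.41 ± 0.06) and EDEM1 (0.47 ± 0.10) were higher in Hke3, while HSPA5, the main chaperone BiP, was -0.21 ± 0.06 and HSP90B1 -0.09 ± 0.12 (adjusted p 0.563).

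Targets of p53 gave 2 members higher in cocultured Hke3 and 3 in HCT116 of 14, beside 23.8% and 14.6% of all genes, and the latter was 5 with median-centred arrays or cyclic loess. Without coculture 7 were higher in Hke3, beside 20.2%. The background of the interaction toward HCT116 was 2.36% of all genes. The interaction passed for 5, all toward HCT116, and for 1 (without HCT116 with vitamin D3 or Hke3 alone) or 2 with 1 array left out. GDF15, a stress cytokine, went from 0.61 ± 0.07 to -0.38 ± 0.07 log2, and the TRAIL receptor TNFRSF10B from 0.28 ± 0.08 to -0.51 ± 0.08. Other bright TNFRSF10B probe sets gave -1.28 and -1.25 in coculture, with interactions of -0.36 to -0.29. The change of sign of TNFRSF10B thus rests on 1 probe set. CDKN1A, the cell cycle inhibitor p21, was 0.62 ± 0.07 apart without coculture and -0.03 ± 0.07 with it. GDF15 and TNFRSF10B are also known targets of the ATF4 and DDIT3 response.

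Several receptors and signalling genes were named besides these lists or by smaller ones. IL20RB, a chain of the receptors for IL-20 family cytokines, read 7.88 and 7.99 in HCT116 and 6.24 and 6.13 in Hke3 in coculture and 6.45 and 6.17 in HCT116 and 7.15 and 6.71 in Hke3 without it. Its difference went from 0.62 ± 0.12 to -1.75 ± 0.12 log2. LAMP3, a lysosomal membrane protein, went from 0.61 ± 0.18 to -1.41 ± 0.18. SPRY1 and DUSP6, feedback inhibitors of RAS-MAPK signalling, crossed in opposite directions, SPRY1 from -0.77 ± 0.15 to 0.76 ± 0.15 and DUSP6 from 0.47 ± 0.08 to -0.29 ± 0.08 log2. FAM210A went from -1.04 ± 0.08 to 0.34 ± 0.08 log2. DKK1, a secreted Wnt inhibitor, widened from 0.63 ± 0.09 to 1.89 ± 0.09, and TWIST1, a mesenchymal transcription factor, from -0.83 ± 0.12 to -1.81 ± 0.12 log2, dim in cocultured Hke3. PLXNA3 and SEMA4B of the semaphorin system widened toward Hke3, to 1.37 ± 0.08 and 0.95 ± 0.08 log2. NRP1, a semaphorin and VEGF receptor, read 7.17 and 6.85 in HCT116 and 5.71 and 5.44 in Hke3 in coculture, where Hke3 was below the median of all values.

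**Figure D4:**
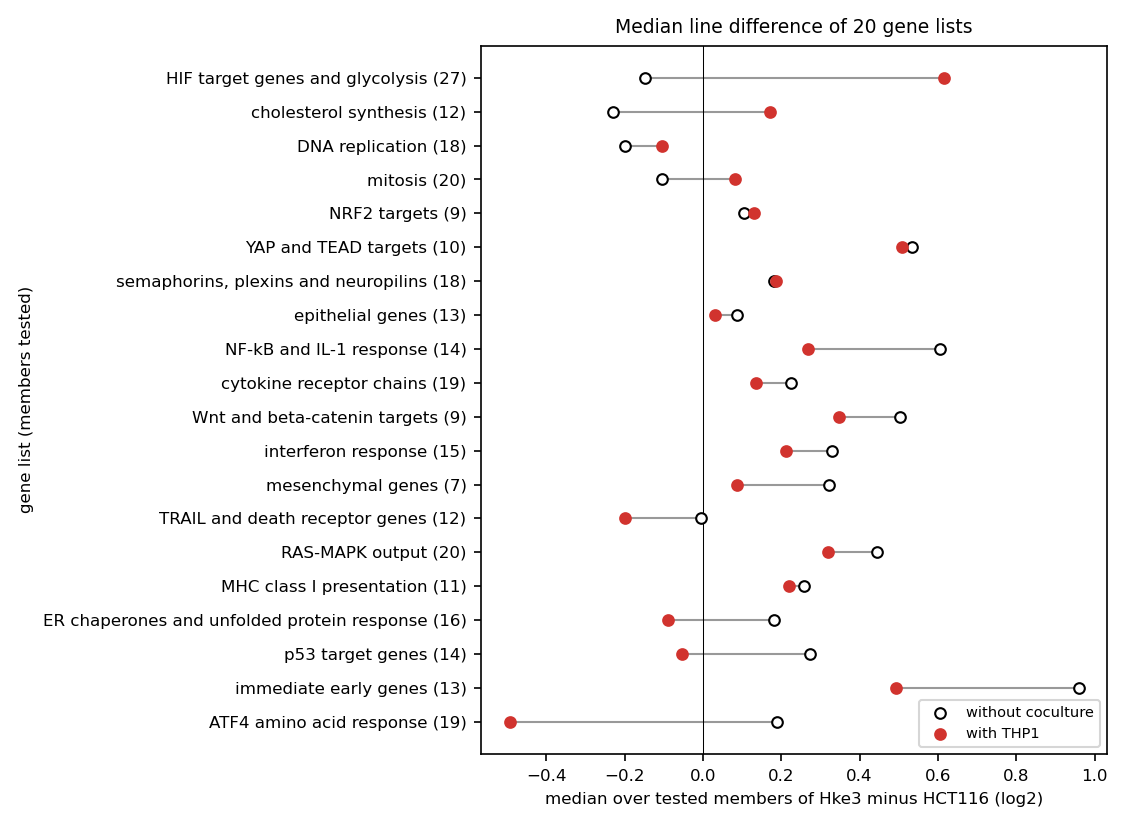
For 20 gene lists, open circles give the median Hke3 minus HCT116 difference (log2) over tested members without coculture and red circles with THP1, ordered by median interaction with the number of members in brackets. The HIF list at the top runs from -0.15 to 0.62 and the ATF4 list at the bottom from 0.19 to -0.49.

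Genes that differed without coculture alone were named in 4 of each direction. MAP2 and MAP1B, microtubule-associated proteins, were higher in Hke3 by 1.15 ± 0.08 and 1.06 ± 0.10 log2 without coculture, and by 0.12 ± 0.08 and 0.06 ± 0.10 with it. For MAP2 the values were 7.45 and 7.20 in HCT116 and 8.53 and 8.43 in Hke3 without coculture and 8.39 and 8.26 in HCT116 and 8.44 and 8.45 in Hke3 with it, so the HCT116 arrays reached the Hke3 level. XYLT1, which starts proteoglycan chains, differed by 1.03 ± 0.09 and the clathrin adaptor AP1S1 by 1.14 ± 0.12 log2 without coculture. For AP1S1 the other bright probe sets gave -0.52 and -0.39 in coculture. Toward HCT116 were ADM, the Sin3 subunit SAP30 (-1.13 ± 0.12), the SUMO ligase PIAS2 (-0.76 ± 0.08) and the co-chaperone STIP1 (-0.68 ± 0.07). The other bright probe set of STIP1 gave -0.90 in coculture, and those of PIAS2 ran from -0.19 to 0.35, 2 of them with an interaction of the other sign. With 1 array left out, MAP2 alone of these 8 genes kept the interaction in every fit. PIAS2 and STIP1 lost it in all 8 fits, AP1S1 and ADM in 6, MAP1B in 4, SAP30 in 3 and XYLT1 in 2, with adjusted p up to 0.128 by limma.

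The widest line differences in coculture were shared with the arrays without it. CCN2, a matricellular target of YAP, read 6.03 and 6.28 in HCT116 and 10.37 and 10.16 in Hke3 in coculture and 6.49 and 6.41 in HCT116 and 9.72 and 10.08 in Hke3 without it, a difference of 4.11 ± 0.13 and 3.45 ± 0.13 log2. HOXB8 (3.56 ± 0.09 and 3.31 ± 0.09), the IGF binding protein IGFBP3 (2.98 ± 0.21 and 1.69 ± 0.21) and ALPK2 (2.73 ± 0.19 and 3.21 ± 0.19) were higher in Hke3. ANXA10 (-3.51 ± 0.14 and -3.40 ± 0.14), FCF1 (-3.33 ± 0.18 and -2.79 ± 0.18) and the phosphodiesterase PDE4B (-3.07 ± 0.09 and -3.17 ± 0.09) were higher in HCT116. CCN2, IGFBP3 and ALPK2 were below the median of all values in cocultured HCT116, and FCF1 in cocultured Hke3. Another bright FCF1 probe set gave 0.08 in coculture. YAP and TEAD targets had 8 of 10 members higher in cocultured Hke3 and immediate early genes 9 of 13, beside 23.8% of all genes. The 8 became 5 without cocultured HCT116 or without cocultured Hke3 with vitamin D3, and 4 with probe sets averaged. In both lists 0 interactions passed by limma, beside 4.16% of all genes, with 4 and 8 at an unadjusted p under 0.05, beside 21.8%. The median of the immediate early list was 0.96 log2 without coculture and 0.49 with it. For the YAP and TEAD list it was 0.53 and 0.51. The vitamin D receptor gene VDR was -0.14 ± 0.12 (adjusted p 0.385) and CYP24A1 1.38 ± 0.68 log2 (adjusted p 0.147) in coculture.

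In 4 further lists 0 interactions passed by limma: interferon response (15 tested), NF-kB and IL-1 response (14), MHC class I presentation (11) and DNA replication (18). Over all genes the interaction passed for 4.16%, so 0 in lists of this size does not show independence from coculture. At an unadjusted p under 0.05 the 4 lists had 1, 5, 3 and 4, beside 21.8% of all genes. In coculture 7, 8, 5 and 2 of their members were higher in Hke3 and 1, 3, 1 and 2 higher in HCT116, beside 23.8% and 14.6% of all genes. With median-centred arrays the DNA replication counts were 0 and 8. The interferon count toward Hke3 was 4 without either cocultured array given no vitamin D3, that of NF-kB 5 without these or cocultured Hke3 with vitamin D3, and that of MHC class I 2 without either coculture array with vitamin D3 and 3 without any 1 other HCT116 array. CXCL8, the neutrophil chemokine, differed by 2.21 ± 0.20 log2 in coculture and 2.69 ± 0.20 without, and TAPBP, a chaperone of MHC loading, by 1.16 ± 0.08 and 0.69 ± 0.08. CXCL8 was below the median of all values in cocultured HCT116, and the other bright TAPBP probe sets gave -0.24 to 0.43 in coculture. RAS-MAPK output had 10 members higher in Hke3 and 2 in HCT116 of 20, the cyclin CCND1 among the former at 1.24 ± 0.10 log2.

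All 24 genes named as apart in coculture alone kept the coculture difference past the threshold when each array was left out in turn, and 16 of them kept the interaction too. EGLN3 lost it without HCT116 alone, cocultured HCT116 with vitamin D3, cocultured HCT116 or Hke3 with vitamin D3, with interactions from 1.19 to 1.61 and adjusted p up to 0.0732 by limma. The interaction of INSIG2 missed the threshold without HCT116 alone, cocultured HCT116, Hke3 alone, Hke3 with vitamin D3 or cocultured Hke3 with vitamin D3, with interactions from 0.92 to 1.30 and adjusted p up to 0.0763 by limma. For HK2 it missed the threshold without HCT116 with vitamin D3, HCT116 alone, cocultured HCT116, Hke3 with vitamin D3 or cocultured Hke3 with vitamin D3, with interactions from 0.98 to 1.35 and adjusted p up to 0.0758 by limma. EFCAB3 lost it without HCT116 with vitamin D3, HCT116 alone, Hke3 alone, Hke3 with vitamin D3, cocultured Hke3 with vitamin D3 or cocultured Hke3, with interactions from 0.85 to 1.56 and adjusted p up to 0.149 by limma. The interaction of UCA1 missed the threshold without HCT116 with vitamin D3, HCT116 alone, cocultured HCT116 with vitamin D3, cocultured HCT116, Hke3 alone or cocultured Hke3, with interactions from 0.75 to 1.08 and adjusted p up to 0.0935 by limma. For ARRDC4 it missed the threshold without HCT116 alone, cocultured HCT116 with vitamin D3, cocultured HCT116 or Hke3 with vitamin D3, with interactions from -1.37 to -1.01 and adjusted p up to 0.0758 by limma. SIPA1L2 lost it without cocultured HCT116 with vitamin D3, cocultured HCT116, Hke3 alone, Hke3 with vitamin D3, cocultured Hke3 with vitamin D3 or cocultured Hke3, with interactions from -1.08 to -0.71 and adjusted p up to 0.0896 by limma. The interaction of TUBE1 missed the threshold without HCT116 with vitamin D3, HCT116 alone, cocultured HCT116 with vitamin D3, Hke3 alone, Hke3 with vitamin D3, cocultured Hke3 with vitamin D3 or cocultured Hke3, with interactions from -1.28 to -0.87 and adjusted p up to 0.116 by limma. Of the 8 genes of opposite sign, 5 kept the interaction. For ANKRD37 it missed the threshold without HCT116 alone, with interactions from 1.79 to 2.45 and adjusted p up to 0.0658 by limma. SPRY1 lost it without HCT116 with vitamin D3, HCT116 alone, cocultured HCT116 with vitamin D3 or cocultured HCT116, with interactions from 1.26 to 1.80 and adjusted p up to 0.0719 by limma. The interaction of LAMP3 missed the threshold without cocultured HCT116 with vitamin D3, Hke3 alone or Hke3 with vitamin D3, with interactions from -2.40 to -1.65 and adjusted p up to 0.0592 by limma. FAM210A kept it but lost the coculture difference without cocultured HCT116 (0.28, adjusted p 0.114 by limma) and without cocultured Hke3 with vitamin D3 (0.27, adjusted p 0.111).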

How the data were processed

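Affymetrix one-colour expression arrays measured total RNA of 10 samples, 1 array per condition, and arrays were grouped by title. Values deposited for each probe set are log2 intensities from RMA (background correction, quantile normalisation, probe summary) in affy, per the submitters' processing notes. The affy version and whether the arrays were normalised together are not given in the sources used here. Values ran from 2.98 to 15.2 log2. Of 54675 probe sets, 41097 named 1 gene, 1801 several (left out) and 11777 none. Each of 19775 genes took its probe set with the highest mean over the 8 colon cancer arrays, and 13246 were tested, those above 6.18 log2 (the median of all values) on at least 1. Precision is limited by the number of arrays.

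The 8 arrays were fitted in limma 3.58.1 (R 4.3.3) with line, coculture, their interaction and additive vitamin D3 with 3 residual degrees of freedom. P-values are two-sided, adjusted by Benjamini-Hochberg over all genes tested, with a threshold of 0.05. The naming rule takes, by size, 12 genes each way apart in coculture alone, 4 each way of opposite sign, apart without coculture alone, and with no interaction, and 4 per list, with VDR and CYP24A1; 1 further gene it always names and 1 it took are not reported here. Members and lists were chosen with earlier results of these data known. Alternatives were other filters, probe set rules, scalings, moderation, models, bounds and leaving out each array; exchanged vitamin D3 labels were chosen after seeing the data. The model was tested on simulated data. Promoters came from RefSeq (GRCh38.p14): 10646 of 13246 genes had one, and a gene with several listed starts counted where any held the motif. Figures used matplotlib 3.10.9 in Python 3.11.15.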

Additional observations from a re-analysis of the deposited data

Results flagged for a closer look

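The line difference of 551 genes depended on coculture by the interaction test, limma with Benjamini-Hochberg adjustment over 13246 genes. The values here are the interaction, the Hke3 minus HCT116 difference in coculture minus that without it, in log2.

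Toward Hke3 among genes apart in coculture alone it was PFKFB4 (1.75), ANGPTL4 (1.74), EGLN3 (1.40), C8orf58 (1.41), INSIG2 (1.11), HK2 (1.16), PTCH1 (1.07), MIR210HG (1.44), FOSL2 (1.15), EFCAB3 (1.21), LOC154761 (1.16) and UCA1 (0.91). Toward HCT116 in the same class it was LURAP1L (-2.12), NIBAN1 (-1.96), CSTA (-1.60), UPP1 (-1.57), ARRDC4 (-1.19), TRIB3 (-1.55), EML2 (-1.25), GFPT1 (-1.11), MOCOS (-1.04), SIPA1L2 (-0.90), TUBE1 (-1.07) and PHGDH (-1.02).

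Genes whose difference changed sign gave ANKRD37 (2.12), SPRY1 (1.53), HILPDA (1.42) and FAM210A (1.38) toward Hke3, and IL20RB (-2.37), LAMP3 (-2.02), SESN2 (-1.69) and DDIT3 (-1.67) toward HCT116. Genes apart without coculture alone gave MAP2 (-1.04), AP1S1 (-1.10), MAP1B (-1.002) and XYLT1 (-0.98), where a Hke3 excess was no longer past the threshold in coculture, and SAP30 (1.29), ADM (1.08), PIAS2 (0.60) and STIP1 (0.62), where a HCT116 excess was no longer past it. PIAS2 and STIP1 kept the interaction in 0 of the 8 fits by limma that leave out 1 array, against adjusted p of 0.0323 and 0.0164 with all arrays.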

How the results depend on the processing

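No paired analysis was possible because each condition has 1 array and the labels give no replicate numbers. The vitamin D3 state that arrays share across lines is already a term of the model. Counts that moved by over 1.5 times were, for genes apart in coculture alone (246), 134 when dim genes were kept, 408 with a filter at the 75th percentile, 487 with trend and robust fitting, 5 with a minimum of 1.5-fold, 413 with coculture vitamin D3 labels exchanged, and 46 to 111 with 1 array left out. For the interaction (551) they were 277, 958, 1168, 9, 975 and 92 to 282 in the same order, 865 with probe sets tested singly and 854 with every two-way interaction in the model. The coculture difference (5089) passed for 9479 probe sets, for 291 genes with a minimum of 1.5-fold and for 3156 to 4920 with 1 array left out; the difference without coculture (4298) for 8566, 194 and 2217 to 4129. With probe sets averaged per gene the coculture differences of IL6ST and BUB1 reversed, to -0.20 and -0.19. The cause was not tested, except that stricter or looser filters, and probe sets tested singly, change the number of tests. Scaling moved the split between lines (printed with the counts). Dim genes limit fold sizes.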

Other observations

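The gene lists described here were added after the data were seen, so their counts, like those of the lists above, describe these arrays only. Cytosolic aminoacyl-tRNA synthetases, which charge tRNAs with amino acids, had 8 of 17 members higher in cocultured HCT116 and 2 higher in Hke3, beside 14.6% and 23.8% of all genes, with a median line difference of -0.20 log2 in coculture and 0.09 without. SARS1, for serine, read 12.65 and 12.60 in HCT116 and 11.88 and 11.85 in Hke3 in coculture, and 11.99 and 11.87 in HCT116 and 12.19 and 12.09 in Hke3 without THP1 cells, so the cocultured HCT116 arrays were the highest. Its line difference went from 0.21 ± 0.06 to -0.76 ± 0.06 log2, and the interaction passed for 6 members, all toward HCT116, beside 2.36% of all genes. It passed for 1 to 3 with 1 array left out: 3 without cocultured Hke3, 2 without cocultured HCT116 or cocultured Hke3 with vitamin D3, and 1 without any other array. The mitochondrial synthetases had 2 of 15 higher in Hke3, 3 higher in HCT116 and 0 interactions past the threshold by limma (2 at an unadjusted p under 0.05). Over all genes these shares were 23.8%, 14.6%, 4.16% and 21.8%.

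Genes of oxygen sensing differed unequally. EGLN1, the main HIF hydroxylase, read 10.63 and 10.76 in HCT116 and 11.71 and 11.90 in Hke3 in coculture, without overlap, a difference of 1.11 ± 0.07 log2 against 0.08 ± 0.07 without coculture. VHL, which marks hydroxylated HIF for degradation, was lower in cocultured Hke3, by -0.78 ± 0.08 log2 against -0.11 ± 0.08. HIF1A itself did not pass in coculture (0.06 ± 0.07, adjusted p 0.54 by limma).

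Collagen-modifying enzymes had 7 of 10 members higher in cocultured Hke3, beside 23.8% of all genes, and 4 without coculture, beside 20.2%. The interaction passed for 3 toward Hke3, beside 1.8% of all genes, and for 1 with probe sets averaged. In coculture PLOD2, a lysyl hydroxylase, differed by 1.01 ± 0.11 log2 and LOXL2, a lysyl oxidase, by 2.04 ± 0.11 (1.25 ± 0.11 without coculture). Another bright LOXL2 probe set gave 0.29 in coculture. Of 9 glycogen genes tested, 5 were higher in Hke3 in coculture and 3 without it, beside 23.8% and 20.2% of all genes. The interaction passed for 4 toward Hke3 and 1 toward HCT116, beside 1.8% and 2.36%. In coculture the synthase GYS1 differed by 1.23 ± 0.07, the branching enzyme GBE1 by 0.66 ± 0.09 and the phosphatase subunit PPP1R3B by 1.10 ± 0.09 log2. The phosphorylase PYGB, which breaks glycogen down, went from 0.59 ± 0.08 without coculture to -0.59 ± 0.08 with it.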
